A study of Mus musculus with 4 samples.

Results

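The genes described here are 10 transcription and RNA-binding regulators of germ cell fate, Dazl, Sohlh2, Stra8, Ddx4, Figla, Nobox, Rbm46, Brdt, Zar1 and Rbm44. They were taken by name from a table of 24116 genes, in which all 10 had a row. RNA-seq read counts were available for 4 libraries of mouse embryonic stem cells of the strain given as 12910la, grown with serum and LIF on gelatin. Wild-type cells gave 2 libraries (wild type 1 and 2) and cells labelled as a Kdm2a knockout gave 2 (knockout 1 and 2). The knockout was made with a guide RNA, and the line came from 1 expanded clone, so genotype and clone cannot be told apart. The titles name a knockout while the genotype field of those libraries reads Kdm2a knocked down. The question is how these germ cell genes are expressed when Kdm2a, a demethylase of histone H3 lysine 36, is targeted.

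Germ cell genes are kept low in most somatic cells by DNA methylation and by a Polycomb complex that contains MGA, MAX, E2F6 and L3MBTL2, and embryonic stem cells express some of them at a modest level. In the gonad, SOHLH2, FIGLA and NOBOX drive the transcription of germ cell and oocyte genes, STRA8 brings germ cells into meiosis under retinoic acid, and BRDT reads acetylated histones in spermatocytes. DAZL, DDX4, RBM46, RBM44 and ZAR1 act on RNA. KDM2A binds unmethylated CpG sites through a CXXC zinc finger, so CpG positions are marked in the sequences that follow.

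Upstream sequences are given for Dazl, Sohlh2 and Stra8, whose libraries did not overlap between the groups, and for Ddx4, whose libraries did. Each covers the 250 bases before a transcript start in the GRCm38.p6 promoter table of RefSeq. Bases read 5′ to 3′ on the strand of the gene, with every CpG in capitals. The windows are Dazl at chr17:50293621-50293870 (minus strand), Sohlh2 at chr3:55181794-55182043 (plus), Stra8 at chr6:34920698-34920947 (plus) and Ddx4 at chr13:112652311-112652560 (minus). In Dazl and Sohlh2 the window borders the RefSeq gene span from outside. In Stra8 and Ddx4 it lies inside the span, before an internal start, so unlike regions are set side by side.
Dazl: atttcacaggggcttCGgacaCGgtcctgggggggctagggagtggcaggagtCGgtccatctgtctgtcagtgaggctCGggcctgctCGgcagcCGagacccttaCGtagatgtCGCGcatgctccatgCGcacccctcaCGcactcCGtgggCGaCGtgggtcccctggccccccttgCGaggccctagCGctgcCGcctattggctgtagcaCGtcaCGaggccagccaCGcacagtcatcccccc
Sohlh2: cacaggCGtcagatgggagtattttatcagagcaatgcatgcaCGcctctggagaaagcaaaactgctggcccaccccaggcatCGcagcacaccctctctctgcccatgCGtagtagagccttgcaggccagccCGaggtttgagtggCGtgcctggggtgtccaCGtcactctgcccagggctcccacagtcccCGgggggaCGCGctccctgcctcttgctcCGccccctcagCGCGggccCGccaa
Stra8: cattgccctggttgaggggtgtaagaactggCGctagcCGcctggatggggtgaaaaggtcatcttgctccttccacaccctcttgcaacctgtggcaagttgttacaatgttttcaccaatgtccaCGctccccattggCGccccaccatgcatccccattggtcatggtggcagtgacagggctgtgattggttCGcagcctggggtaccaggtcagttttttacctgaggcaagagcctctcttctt
Ddx4: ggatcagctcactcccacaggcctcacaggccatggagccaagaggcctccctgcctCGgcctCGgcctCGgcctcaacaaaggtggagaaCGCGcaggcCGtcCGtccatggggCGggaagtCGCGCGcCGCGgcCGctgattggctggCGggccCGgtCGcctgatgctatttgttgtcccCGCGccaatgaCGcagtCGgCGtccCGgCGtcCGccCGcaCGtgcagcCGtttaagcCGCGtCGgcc
These upstream windows held 20 CpG in Dazl, 14 in Sohlh2, 5 in Stra8 and 31 in Ddx4. Counted over the full table window, which adds 50 bases after the start, the numbers were 28, 17, 10 and 38. The median over 32817 promoter windows of 300 bases was 7 CpG, with quartiles of 3 and 20. Ddx4 and Dazl thus lay above the upper quartile, and Sohlh2 and Stra8 between the median and the upper quartile. Among the other members in the table, Rbm46 had 25, Brdt 23, Zar1 17, Figla 16 and Nobox 13. The upstream windows of Zar1, Figla and Nobox also lay inside the gene span, and those of Rbm46 and Brdt partly so. The promoter table matched 9 of the 10 members, all but Rbm44.

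The same 300-base windows were searched on both strands for 3 motifs. These were the E-box CACGTG, bound by MAX with its partners, the E2F core TCCCGC, which reads GCGGGA on the other strand, and the retinoic acid receptor half-site AGGTCA, which reads TGACCT on the other strand. They do not overlap each other in these windows. The E-box stood in Ddx4, Rbm46 and Brdt, starting 29, 34 and 78 bases before the transcript start of the window. By the RefSeq gene spans, the Ddx4 site lay inside the gene and the Rbm46 and Brdt sites at its edge. It is shown in capitals with 10 bases on each side (Ddx4 chr13:112652324-112652349, Rbm46 chr3:82876502-82876527, Brdt chr5:107331106-107331131).
Ddx4 E-box: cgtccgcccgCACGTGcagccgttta
Rbm46 E-box: ggggccactcCACGTGaggcacgcta
Brdt E-box: caggcacagtCACGTGgcagaccctg
Of all 32817 windows, 7.15% held this E-box. The E2F core was found in Ddx4, Rbm46 and Zar1, against 20.0% of all windows. Stra8, a gene known for its response to retinoic acid, held the half-site in 2 places, shown in capitals. These began 194 and 38 bases before the transcript start of the window (chr6:34920744-34920769 and chr6:34920900-34920925), both inside the RefSeq span of Stra8.
Stra8 distal half-site: tggggtgaaaAGGTCAtcttgctcct
Stra8 proximal half-site: ctggggtaccAGGTCAgttttttacc
Of all windows, 16.3% held at least 1 half-site, and among the members it was also present in Nobox. The windows of Dazl, Sohlh2 and Figla held none of the 3 motifs.

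Total counts per library lay between 18844246 and 19056529, so depth hardly differed. Counts of Kdm2a itself were 2899 and 3554 in wild type, 3710 in knockout 1 and 4753 in knockout 2, so its RNA was not lower in the latter and all directions rest on the labels. Counts per gene hold no information on the protein. Across 14194 tested genes, knockout 2 stood apart, with Pearson correlations of 0.938 to 0.959 with the others (log2 CPM, across genes, which are not replicates). Knockout 1 correlated at 0.984 with wild type 1 and 0.978 with wild type 2, above the 0.968 between the wild-type libraries. It correlated at 0.952 with knockout 2, so the libraries did not group by label. Fold changes of the tested members are therefore also given without each library labelled knockout. All 9 embryonic stem cell markers were detected in every library, Pou5f1 and Sox2 among them, with summed levels of 6408 to 6570 CPM (TMM-scaled counts relative to the library total, the scale of all CPM values here) in wild type and 5701 to 7030 in the other group. The labels do not name separate cultures, and the spread behind each p-value may thus be technical.

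Dazl, Sohlh2, Stra8 and Rbm44 were lower in both libraries labelled knockout than in both wild-type libraries, with means at 30.5%, 39.0%, 31.4% and 41.0% of wild type. Brdt was also separated, meaning that its CPM ranges did not overlap between the groups, but by a narrow margin, and Ddx4 and Rbm46 overlapped. Of the 7 members with enough counts to be tested, 5 had both libraries labelled knockout under both wild-type libraries and 0 had both above, where 12.7% and 11.7% of all tested genes did. The members were chosen with earlier results of these data known. Setting them against all tested genes, here and by p-value or share of genes below, is therefore a description and no independent test. In bulk RNA, fewer expressing cells and less RNA per cell cannot be told apart. No member passed the edgeR quasi-likelihood test at an adjusted p under 0.05, which called 0% of the tested genes. At an unadjusted p under 0.05, 3 members were lower (Dazl, Sohlh2 and Rbm44), against 0.817% of tested genes, and DESeq2, the edgeR likelihood ratio test and limma-voom, which called 0.0141%, 0.0282% and 0% of tested genes after adjustment, each called 0 of the 7 members.

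**Figure D1:**
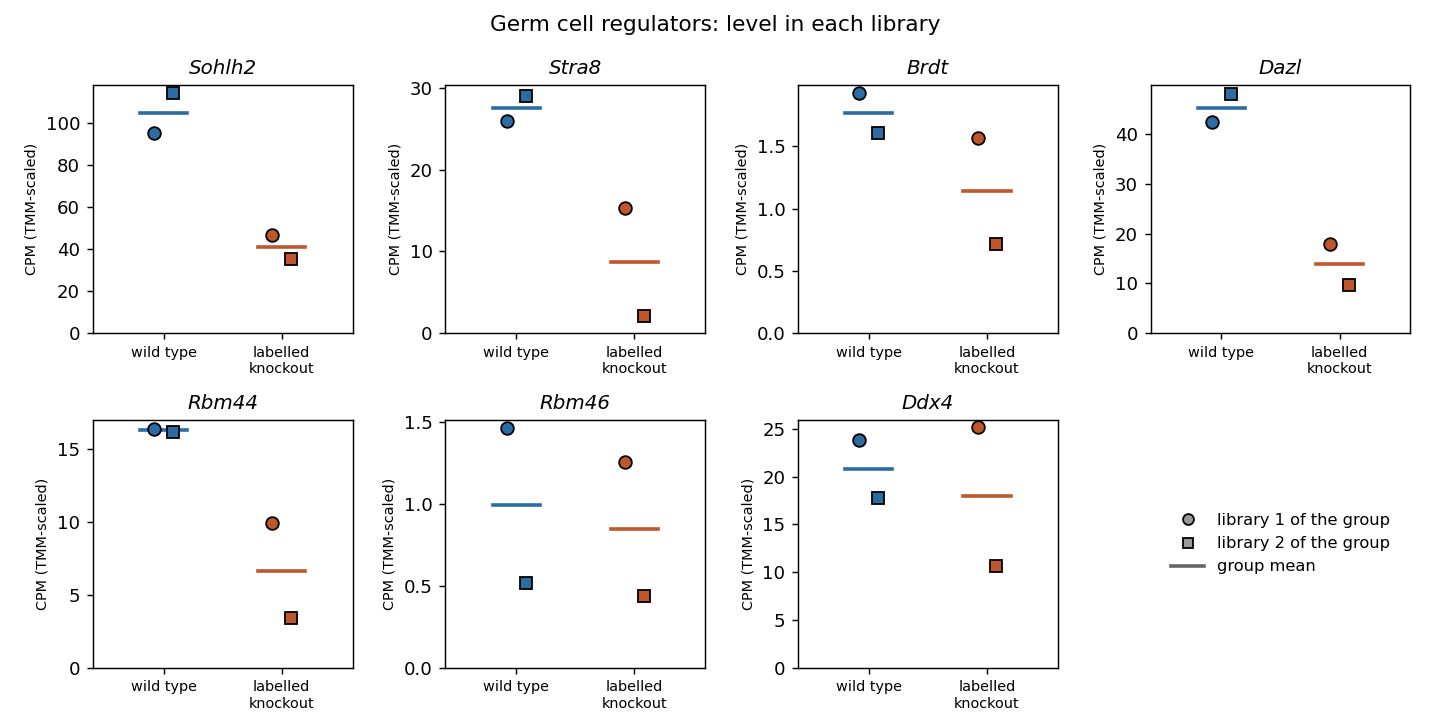
Level of each tested member in each library, in CPM scaled by TMM, with circles and squares for the first and second library of a group and a line at the group mean. Dazl, Sohlh2, Stra8 and Rbm44 have both libraries labelled knockout well below both wild-type libraries, while Ddx4 and Rbm46 overlap.

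Among the transcription regulators, Sohlh2, a basic helix-loop-helix factor of early germ cell differentiation (Entrez gene 74434, chr3:55182044-55209957, RefSeq GRCm38.p6 as for all genes here), had the highest level per length. It had 1827 and 2203 counts in wild type, 892 in knockout 1 and 641 in knockout 2. The wild-type libraries were both high, and the libraries labelled knockout lay close together below them. The wild-type mean of Sohlh2 was 105 ± 13.3 CPM and the mean of the other group 40.9 ± 8.04 CPM (SD, n = 2 each). The log2 fold change was -1.36 (SE 0.26, unadjusted p = 0.00117, adjusted p = 1.00 by edgeR's quasi-likelihood test), and its p-value ranked 5 of 14194. DESeq2 gave an adjusted p of 0.0598 and the likelihood ratio test 0.0717. Of the separated members it changed least between knockout 1 and knockout 2, by -0.40 on the log2 scale. Its fold change was -1.17 without knockout 2 and -1.58 without knockout 1.

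Stra8, the retinoic acid-induced regulator of meiotic entry (Entrez gene 20899, chr6:34920163-34939344), had 498 and 560 counts in wild type, 292 in knockout 1 and 37 in knockout 2. Wild type was uniform, knockout 1 stood at 55.4% of the wild-type mean and knockout 2 at 7.39%. Means were 27.5 ± 2.13 CPM and 8.65 ± 9.35 CPM (SD, n = 2 each). This gave a log2 fold change of -1.67 (SE 0.78, unadjusted p = 0.0707, adjusted p = 1.00 by edgeR). The 2 libraries labelled knockout differed by -2.84 on the log2 scale, a drop that 0.352% of tested genes matched or exceeded. The wild-type libraries differed by 0.16. The size of the Stra8 difference therefore depended on knockout 2: the fold change was -0.85 without it and -3.76 without knockout 1.

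Brdt, a testis bromodomain protein (Entrez gene 114642, chr5:107331116-107387061), was scarce, with 37 and 31 counts in wild type, 30 in knockout 1 and 13 in knockout 2. Knockout 1 was just under the lower wild-type library in CPM (1.57 against 1.61), so its separation rested on that small gap. The log2 fold change was -0.63 (SE 0.65), with -0.17 without knockout 2 and -1.30 without knockout 1. The gene model Gm8152 overlaps Brdt on the other strand, and without a stated strand setting reads of both could be mixed.

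The oocyte factors were at the limit of detection. Figla, which switches on egg coat genes (chr6:86016494-86020996), had 3 counts in wild type 1 and 0 in the other libraries. Nobox, an oocyte homeobox factor (chr6:43303674-43310072), counted 3 and 5 in wild type, then 1 and 2. Neither passed the filter on low counts, so no fold change is given. Zar1, an oocyte RNA-binding protein (chr5:72577113-72581361), had 0 counts in all 4 libraries, which allows up to 3 counts, or 0.157 to 0.159 CPM of the library total (counting error only).

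Among the RNA-binding regulators, Dazl, which promotes translation of germ cell transcripts (Entrez gene 13164, chr17:50279393-50293620), had 813 and 925 counts in wild type, 344 in knockout 1 and 175 in knockout 2. Both libraries labelled knockout were low, at 39.7% and 21.3% of the wild-type mean. The wild-type mean of Dazl was 45.2 ± 3.88 CPM, against 13.8 ± 5.91 CPM (SD, n = 2 each). The log2 fold change was -1.71 (SE 0.36, unadjusted p = 0.00220, adjusted p = 1.00 by edgeR), with rank 6 of 14194 by p-value. DESeq2 gave an adjusted p of 0.0598 and the likelihood ratio test 0.107. Of all tested genes, 0.740% lay at least as far below the wild-type mean in knockout 1, and 1.20% in knockout 2. The fold change stayed below -1 with either library left out, at -1.33 without knockout 2 and -2.23 without knockout 1.

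Rbm44, an RNA-binding protein of the bridges between male germ cells (Entrez gene 329207, chr1:91144973-91170799), had 313 and 312 counts in wild type, 190 in knockout 1 and 62 in knockout 2. The wild-type libraries were alike, at 16.3 ± 0.126 CPM, against 6.67 ± 4.61 CPM (SD, n = 2 each). This wild-type SD is smaller than counting error alone would give, so it is no measure of reproducibility. Its log2 fold change was -1.28 (SE 0.53, unadjusted p = 0.0468, adjusted p = 1.00 by edgeR), and -0.71 without knockout 2 and -2.25 without knockout 1. As in the other 4 separated members, knockout 1 lay between wild type and knockout 2.

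Ddx4, the VASA helicase of germ cells, which also serves the piRNA pathway (Entrez gene 13206, chr13:112598333-112652633), had 457 and 342 counts in wild type, 483 in knockout 1 and 194 in knockout 2. Knockout 1 was the highest and knockout 2 the lowest of all libraries, so the groups overlapped fully. The log2 fold change was -0.21 (SE 0.45), and it turned to 0.28 without knockout 2 and to 0.02 without wild type 1, and was -0.97 without knockout 1. Rbm46, which works with MEIOC and YTHDC2 in meiotic RNA control (chr3:82836521-82876512), counted 28 and 10 in wild type, 24 in knockout 1 and 8 in knockout 2. The first library of each group was the higher, and the log2 fold change of -0.22 (SE 0.82) turned to 0.35 without knockout 2 and to 0.71 without wild type 1, and was -1.16 without knockout 1.

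Leaving out knockout 1 was the 1 setting under which members passed. With knockout 2 alone against wild type, edgeR's quasi-likelihood test called 2 members, Stra8 (adjusted p = 0.0201) and Dazl (adjusted p = 0.0370), where 0.109% of tested genes were called lower. Here the lone library is assumed to vary as the wild-type pair does. Sohlh2 and Rbm44 missed the threshold there, at 0.0794 and 0.0853. With knockout 1 alone against wild type 0 members were called, where 0.048% of tested genes were called lower, and over all settings the adjusted p of Dazl ran from 0.0370 to 1.00, of Stra8 from 0.0201 to 1.00 and of Sohlh2 from 0.0598 to 1.00.

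**Figure D2:**
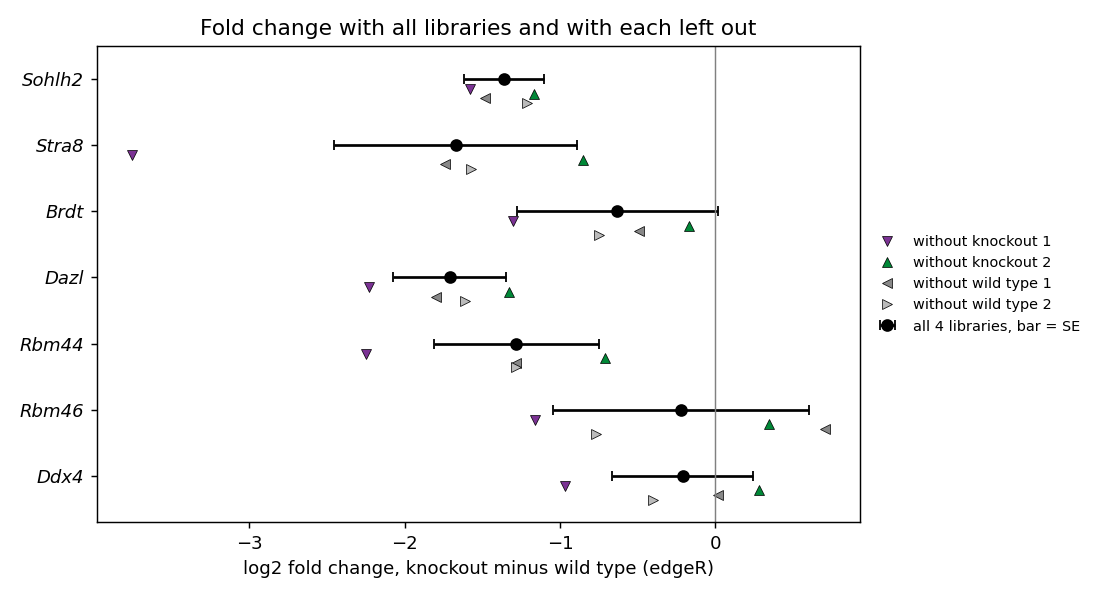
Log2 fold change of each tested member, knockout minus wild type, from edgeR with all 4 libraries (black, bars are SE) and with each library left out (triangles). Sohlh2 and Dazl stay below -1 throughout, Stra8 spans -3.76 to -0.85, and Ddx4 and Rbm46 cross 0.

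The patterns over the 4 libraries were compared in shape, with no allowance for counting error. Likeness was measured as the root mean square distance between log2 CPM profiles, each centred on its own mean over 4 libraries. Dazl was near Sohlh2 (0.270) and Rbm44 (0.276), and far from Ddx4 (0.763). Ddx4 and Brdt were the closest pair of members (0.199), although Brdt rests on few counts. Stra8 was at least 0.622 from every other member, with Rbm44 the nearest. Of 13188 other genes, the most like Dazl were Fndc1 (0.0339), 4933427D06Rik (0.0810) and Rbp4, a retinol carrier (0.102). Fndc1 counted 71 and 86 in wild type, then 30 and 14. The most like Sohlh2 were Dkkl1 (0.0620), Crxos (0.0755) and Rgs10, a regulator of G protein signalling (0.0846). For Stra8 they were Rhox13, an X-linked homeobox gene of germ cells (0.259), Gm15915 (0.272) and Slc35d2 (0.313), all farther off. Rhox13 counted 76 and 86 in wild type, then 38 and 2. With 4 values per gene, close matches among so many genes can arise by chance, which was not tested.

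Levels per length showed which members these cells expressed most. The scale is CPM per kilobase of merged exon in GENCODE M21. In wild type, Sohlh2 stood at 44.4 ± 5.61, Stra8 at 15.3 ± 1.18, Dazl at 11.8 ± 1.01, Ddx4 at 6.90 ± 1.44 and Rbm44 at 2.50 ± 0.0193 (SD, n = 2 each). The libraries of neighbours in this order did not overlap. Rbm46 (0.397 ± 0.267) and Brdt (0.346 ± 0.0451) followed and overlapped each other. Nobox (0.103 ± 0.0360) and Figla (0.0938 ± 0.133) came last and also overlapped, with Zar1 at 0. The small wild-type SD of Rbm44 is less than counting error alone would give. In the libraries labelled knockout, Sohlh2 remained the highest, at 17.3 ± 3.40, while Ddx4 (5.96 ± 3.42), Stra8 (4.79 ± 5.19) and Dazl (3.61 ± 1.55) overlapped.

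**Figure D3:**
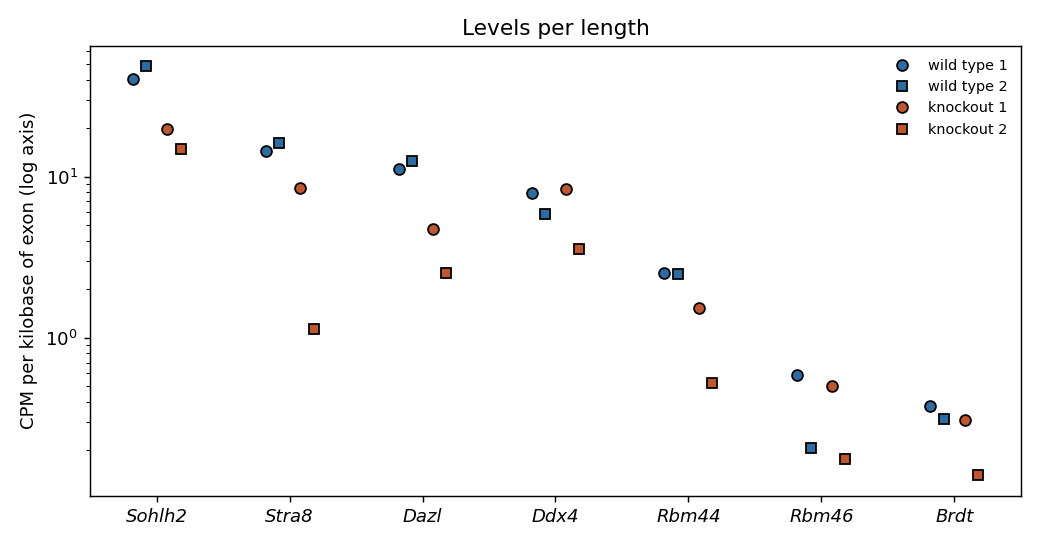
CPM per kilobase of exon (log axis) of the 7 tested members in each of the 4 libraries, ordered by the wild-type mean. Sohlh2 is highest in every library, and Stra8 in knockout 2 (1.13) lies below Dazl and Ddx4, which it exceeds in wild type.

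Markers of 2-cell-like cells, a rare state in such cultures, moved with knockout 2. Over 7 such genes, Zscan4c, Zscan4d and Zscan4f included, the summed level was 10.2 and 18.3 CPM in wild type. It was 19.8 CPM in knockout 1 and 3.96 CPM in knockout 2. Tcstv1 was near the floor throughout, at 1 and 2 counts in wild type, then 1 and 0. The 10 members summed to 208 and 228 CPM in wild type, 118 CPM in knockout 1 and 62.2 CPM in knockout 2. The largest part of this was Sohlh2, at 95.5 and 114 CPM, then 46.6 and 35.2 CPM. In knockout 1 the sum of the 2-cell-like markers was above both wild-type libraries. However, Zscan4d (8.05 against 9.39 CPM), Usp17lc (1.83 against 2.23 CPM), Zfp352 (0.679 against 0.933 CPM) and Tcstv1 (1 count against 2) were each below wild type 2. The part of these markers in the values of the members was not tested. Fibroblast markers (8 genes) summed to 47.8 and 22.4 CPM in wild type and 38.8 and 21.6 CPM in the libraries labelled knockout. Most of this was Thy1, at 36.5 and 16.4 CPM, then 31.0 and 17.8 CPM, and Lum was at 0 throughout. Primitive endoderm markers (6 genes) summed to 13.5 and 5.96 against 10.1 and 14.7 CPM. Epiblast markers (4 genes) summed to 187 and 244.5 against 202 and 229 CPM, with Fgf5 at 0 in wild type 1. Most of this was Dnmt3b, which is also in the list of repressors, at 143.8 and 174.3 against 159.5 and 172.7 CPM.

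Other germ cell genes were read from lists chosen by role, with earlier results of these data known. Beside the counts given for each list, 49.5% of all tested genes had a negative fold change and the median over all was 0.00, 12.7% were separated downward and 11.7% upward, and 0.817% were lower at an unadjusted p under 0.05. edgeR's quasi-likelihood test, DESeq2, limma-voom and the likelihood ratio test each called 0 genes in every one of the 7 lists after adjustment, and the numbers with an unadjusted p under 0.05 by the first are given. In the list of meiotic entry and chromosome genes, 20 of 24 could be tested, 15 were negative and 5 positive, 8 had both libraries labelled knockout lowest and 1 had both highest, with a median of -0.52 (-0.34 without knockout 2 and -0.88 without knockout 1). Unadjusted p was under 0.05 for 3, all lower (Stag3, Smc1b and Hormad1). Stag3, a meiotic cohesin subunit with the most counts of this list, counted 3222 and 3795 in wild type, then 2643 and 1948, a log2 fold change of -0.57 (SE 0.23). Syce3, of the synaptonemal complex, was at -1.80 (SE 0.84) and Mei1, needed for meiotic breaks, at -1.64 (SE 0.73). Both rest on few counts. Syce3 counted 35 and 12 in wild type, then 9 and 4, and Mei1 16 and 23, then 8 and 4. The list median relative to the wild-type mean was -0.34 in knockout 1 and -0.86 in knockout 2. Meiosin, the partner of STRA8, was not analysed here.

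Germ cell RNA regulators had 12 negative and 4 positive of 16 tested, with 5 separated downward, 1 upward and a median of -0.26. Rnf17, a tudor protein, was the 1 with an unadjusted p under 0.05, at -0.92 (SE 0.29). Sall4, a zinc finger factor with the most counts of the list, was at 0.37 (SE 0.24), Mael, a piRNA factor, at -1.11 (SE 0.60) and Mov10l1, the piRNA helicase, at -1.02 (SE 0.64). Without knockout 2 these were 0.13, -0.45 and -0.30, and without knockout 1 they were 0.58, -2.33 and -2.49. This list depended on knockout 2, with a median of -0.07 without it and -1.10 without knockout 1. Oocyte factors and targets had 5 negative and 2 positive of 7 tested from 18 listed, 4 of them separated downward, with a median of -0.50 (-0.20 without knockout 2, -0.19 without wild type 1 and -0.81 without knockout 1). Ooep, of the maternal complex of the egg, counted 1353 and 1468 in wild type, then 996 and 668, at -0.73 (SE 0.27, unadjusted p = 0.0291). Padi6, a cytoplasmic protein of the egg, counted 13 and 13 in wild type, then 3 and 7, at -1.31 (SE 0.79), with -2.06 without knockout 2 and -0.81 without knockout 1. The egg coat gene Zp3 counted 58 and 85 in wild type, then 71 and 178, at 0.86 (SE 0.58), with 0.00 without knockout 2 and 1.39 without knockout 1. Both Zp3 and the oocyte growth factor Bmp15 were high in knockout 2 alone. Bmp15, named after its values were seen, had 1 and 7 counts in wild type, 1 in knockout 1 and 45 in knockout 2, and did not pass the filter on low counts.

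Genes of germ cell specification had 6 negative and 3 positive of 9 tested, with 3 separated downward and 1 upward. The list median was -0.18 (-0.09 without knockout 2, -0.07 without knockout 1 and -0.12 without wild type 1). Of these genes, 0 had an unadjusted p under 0.05 by edgeR's quasi-likelihood test. Kit, the receptor of stem cell factor, had the most counts and stood at -0.18 (SE 0.25), with 0.05 without knockout 2 and -0.46 without knockout 1. Nanos3, a translational repressor of primordial germ cells, counted 6 and 9 in wild type, then 19 and 26 (log2 fold change 1.62, SE 0.69), and Dppa3, a maternal factor, 44 and 40 against 29 and 4 (-1.32, SE 0.86, with -0.52 without knockout 2 and -3.28 without knockout 1). The 2 genes thus went opposite ways within 1 list.

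Repressors of germ cell genes had fold changes near 0. All 22 could be tested, 15 were positive and 7 negative, 2 were separated upward (9.09%) and 1 downward (4.55%), smaller shares than over all tested genes, and their fold changes lay between -0.23 and 0.41 with a median of 0.08 (-0.06 without wild type 1 and 0.21 without wild type 2). None had an unadjusted p under 0.05 by edgeR. Dnmt1, the maintenance DNA methyltransferase, was at -0.03 (SE 0.19), Mga, the scaffold of the E-box-binding Polycomb complex, at 0.41 (SE 0.33), and Dnmt3l, a cofactor of de novo methylation, at 0.31 (SE 0.30). Mga counted 5145 and 6412 in wild type, 5221 in knockout 1 and 9614 in knockout 2, so knockout 2 alone was above wild type. Without knockout 2, Mga was at -0.14 and Dnmt3l at -0.17, and without knockout 1 they were at 0.81 and 0.66.

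The retinoic acid pathway, which acts on Stra8, had 9 negative and 5 positive of 14 tested, 3 separated upward and 1 downward, with a median of -0.09 (0.15 without wild type 1, 0.10 without knockout 1 and 0.04 without knockout 2), and 0 at an unadjusted p under 0.05. Rarg, the receptor with the most counts, was higher in both libraries labelled knockout, at 3273 and 4534 counts, then 5309 and 5130 (0.46, SE 0.23). Rxrg, a partner receptor, was at 1.14 (SE 0.57) and Stra6, a retinol transporter, at -1.23 (SE 0.65). Both rest on few counts, 18 and 20 in wild type, then 44 and 38 for Rxrg, and 25 and 26, then 13 and 8 for Stra6. Close relatives of the members were also read. Ddx3x, a helicase related to Ddx4, was at 0.31 (SE 0.39), and Rbm47, related to Rbm46, at -0.52 (SE 0.34). Without knockout 2 these were -0.22 and -0.25, and without knockout 1 they were 0.69 and -0.85. The median of the 6 tested relatives was 0.07 (-0.09 without wild type 1, 0.25 without wild type 2 and 0.01 without knockout 2), and 0 had an unadjusted p under 0.05.

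**Figure D4:**
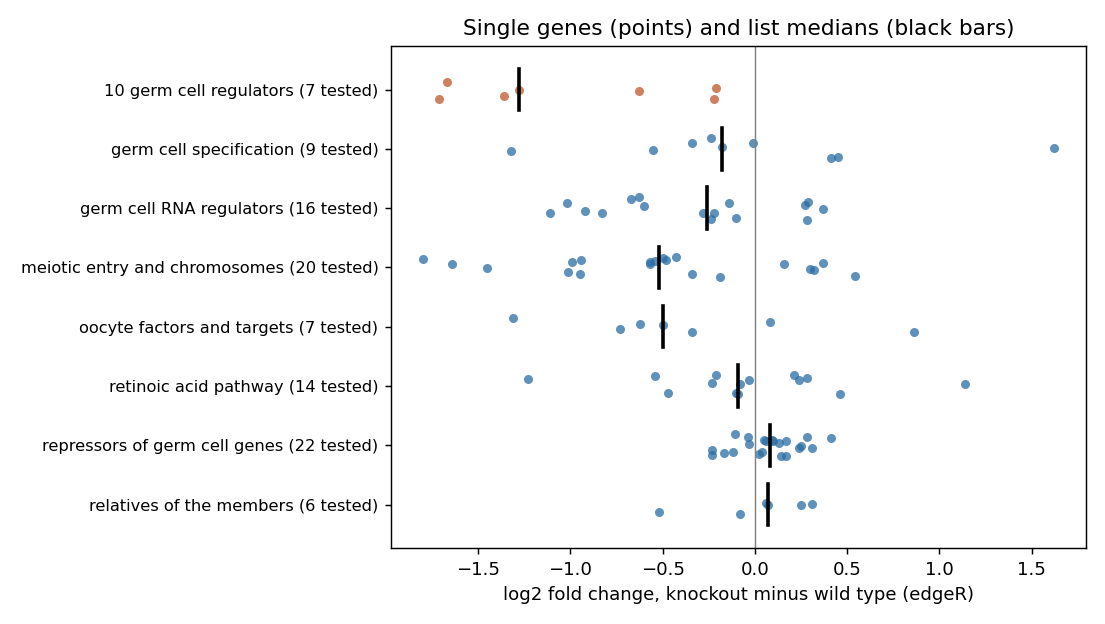
Log2 fold change, knockout minus wild type, of every tested gene of each list (points) with the list median (black bars). The 7 tested germ cell regulators have a median of -1.28 and all lie below 0, whereas the 22 repressors lie between -0.23 and 0.41.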

How the data were processed

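The values the authors deposited are raw read counts, 1 whole number for each gene and library. The submitters' processing notes name HISAT2, featureCounts and mm10. Tool versions, gene annotation and strand setting were not given in the sources used here. Of 24116 gene numbers, 24061 matched a symbol in RefSeq GRCm38.p6.

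Groups came from the titles. After filterByExpr (14194 genes) and TMM scaling, edgeR 4.0.16 (R 4.3.3) was run with the quasi-likelihood F test on genotype, with Benjamini-Hochberg adjustment over all tested genes and a threshold of 0.05. The SE was obtained from the fold change and F (absolute value over root F). For log2 CPM the prior count was 2. Separated, downward or upward, means that the CPM ranges of the 2 groups do not overlap. Alternatives were DESeq2 1.42.0, limma-voom (limma 3.58.1), the edgeR likelihood ratio test, 3 scalings, 2 filters, a replicate block and each library left out.

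All 10 members were named, and from each list the gene with the highest mean CPM and the 2 largest changes, plus the 3 genes nearest to Dazl, Sohlh2 and Stra8 among those with a mean of at least 1 CPM. Genes named beyond this rule were chosen after their values were seen. Among them are those with a low unadjusted p, Bmp15, Fgf5, Foxa2 and single cell type markers. Members and lists were chosen with earlier results of these data known.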

Additional observations from a re-analysis of the deposited data

How the results depend on the processing

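With all 4 libraries, 0 genes were called with limma-voom, the replicate block, 3 other ways of scaling and 2 of filtering, while DESeq2 called 2 and the edgeR likelihood ratio test 4, and none of these called a member. Leaving out 1 library gave 0 to 91 genes (8 without knockout 2 and 91 without knockout 1), 0 to 2 members (2 without knockout 1), and a median over the tested members between -1.58 and -0.71, against -1.28 with all (-0.71 without knockout 2). Of 91 values of single members under the alternatives, 85 kept their direction and their side of the threshold, 2 passed it (Stra8 and Dazl without knockout 1) and 4 changed sign: Ddx4 (-0.97 to 0.28 with 1 library left out, positive without wild type 1, at 0.02, and without knockout 2) and Rbm46 (-1.16 to 0.71, positive in the same 2 fits, at 0.35 without knockout 2). The numbers in the titles are not stated to pair the libraries, although same-numbered libraries deviated together (r = 0.35 across genes). With a replicate block, 0 genes and 0 members passed, and the median over the members was -1.36. Depth limits Figla, Nobox and Zar1, and Rbm46 and Brdt rest on few counts. Groups of 2 allow no exact permutation p below 0.333 (two-sided).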

Other observations

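Among the epiblast and primitive endoderm markers, Fgf5 and Foxa2 were high in knockout 2 alone, and were chosen after their values were seen. Fgf5, a growth factor of the formative epiblast, had 43 counts there against 0, 1 and 1 in wild type 1, wild type 2 and knockout 1. Foxa2, an endoderm factor, had 59 counts against 1, 0 and 1. With 1 library these differences have no replicate check.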
